A study of Mus musculus with 13 samples.

Results

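Feedback genes of the RAS-ERK pathway were followed in the RNA-Seq of mouse embryonic fibroblasts (MEFs) made senescent and treated with Fucoidan-FV. The 10 genes are Dusp4, Dusp5, Dusp6, Spry2, Spry4, Spred1, Phlda1, Etv4, Etv5 and Ier3, picked by symbol out of the 57010 genes listed and matched to Ensembl identifiers of the mouse annotation. They were proposed with the levels of the 4 groups in view, so their levels and fold changes are a description and carry no p. All 10 had enough counts to enter the fit of 15034 genes. Dusp6 and Etv4 were lower in every MEF culture given Fucoidan-FV than in every untreated senescent culture, at 5.72-fold and 9.57-fold lower mean levels with 100 µg/mL and 5.4-fold and 6.96-fold with 300 µg/mL (n = 3 mice per group). Dusp5 and Phlda1 lay lower at both doses as well, while Spry2, Spry4, Spred1 and Ier3 overlapped between treated and untreated cultures. Dusp4 also overlapped with the untreated senescent cultures at both doses, and Etv5 at 300 µg/mL.

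ERK is the last kinase of a relay from growth factor receptors through RAS, RAF and MEK, and it enters the nucleus to switch on immediate genes. Several of these genes encode brakes on the same relay, so their RNA is widely read as a trace of recent ERK activity. The DUSP phosphatases take phosphate off ERK itself, the Sprouty and SPRED proteins act upstream at RAS and RAF, and ETV4 and ETV5 are ETS transcription factors made in response to FGF and other receptor signals. PHLDA1 and IER3 are small proteins that the pathway induces and that act on receptor signaling and cell survival.

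The RNA-Seq had 4 groups, all wild-type (WT) MEFs, which are primary cultures of mid-gestation mouse embryos without viscera, and the sample names give mice 4, 5 and 6 in each group. Control MEFs were neither made senescent nor given fucoidan. Untreated senescent MEFs, whose names write the inducer as "Eo", and both treated groups, whose names write "Eto", had been exposed to etoposide, a topoisomerase poison, at 2 µM for 24 h and then kept 5 days in plain medium. The treated senescent MEFs received Fucoidan-FV, a sulfated polysaccharide from the seaweed Fucus vesiculosus, at 100 µg/mL or at 300 µg/mL, and RNA was taken after 12 h. None of the 13 libraries is of control MEFs given Fucoidan-FV, so whether the differences depend on senescence was not tested. Cultures rather than single cells were sequenced, so fewer cells that express a gene and less RNA per cell cannot be told apart.

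The 13 libraries (control mouse 5 has a pair, 5(1) and 5(2), summed to 1 sample) held between 22782536 and 31278750 counts, and the members had between 14 (Spry2) and 3830 (Etv4) counts in a sample. All 10 fibroblast markers were above 1 CPM (counts scaled to a common library size) in every group. Libraries differed, within groups too, in genes annotated with a single transcript. Relative to 7615 genes whose bases lie mostly in several transcripts, 2105 such genes deviated by a median log2 of −1.40 in control mouse 6 up to 1.06 in mouse 5 at 100 µg/mL. Dusp4, Dusp5, Spry2, Spry4 and Ier3 have 1 transcript, and 95.2% of the exonic bases of Phlda1 and 82.4% of those of Spred1 lie in 1 transcript, against 10.6% for Dusp6, 18.7% for Etv4 and 10.1% for Etv5. Between both libraries of control mouse 5, log2 CPM differed by 0.87 (Spred1) to 3.18 (Spry4) in those 7 members and by −0.12 in Dusp6, −0.31 in Etv5 and −1.03 in Etv4. The cause was not tested. Results are therefore also given with sequence offsets, which remove per library the trend with single-transcript sequence, gene length and GC content.

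**Figure D1:**
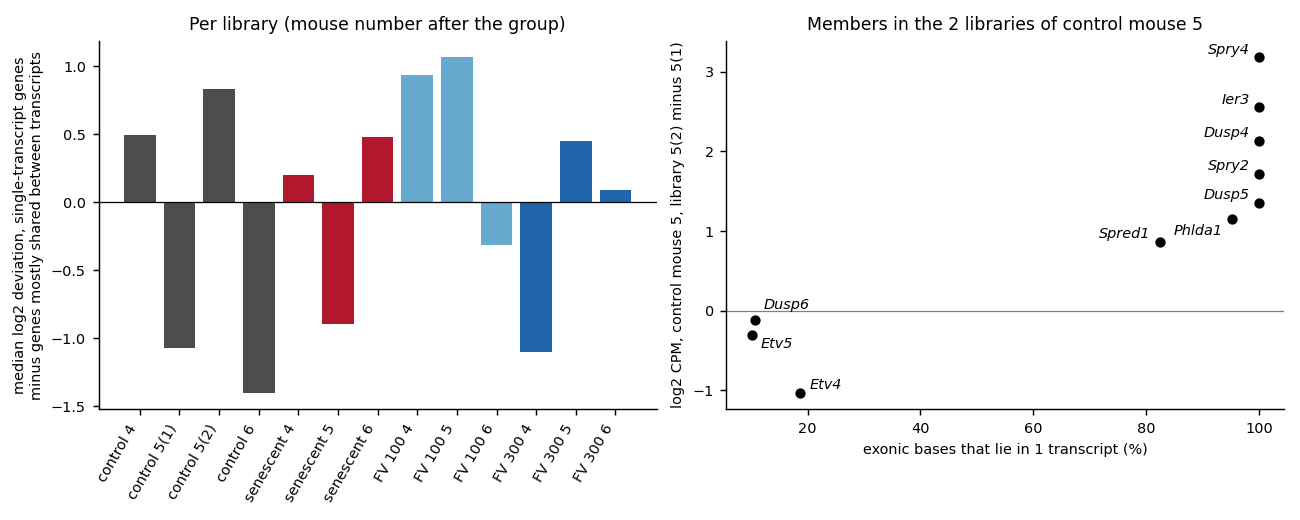
The left panel plots, for each of the 13 libraries, the median log2 deviation of single-transcript genes minus that of genes mostly shared between transcripts, which runs from −1.40 to 1.06. The right panel plots for the 10 members the log2 CPM of library 5(2) minus 5(1) of control mouse 5 against the percentage of exonic bases in 1 transcript, and the 7 members made mostly of single-transcript sequence all lie above 0.

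The 250 bases before the start of the main transcript were read from the GRCm39 genome for Etv4, Dusp6, Dusp5 and Phlda1, which were lower at both doses, and for Etv5 and Dusp4 as close relatives, to show what these upstream sequences share and where they differ. Capitals mark the hexamer TGAATG on either strand (CATTCA on the other), the octamers TGAATGAA, TGAATGGA, TCAATGAA and TCAATGGA on either strand, which contain the hexamer where they begin with TGAATG, and the CArG box (CC, 6 bases of A or T, GG). The octamer is known as the binding sequence of capicua, a repressor that ERK signaling removes from DNA, and the CArG box as that of serum response factor. The hexamer, the octamer and the CArG box were chosen after the sequences had been read.
Etv4, chr11:101676198-101676447, minus strand: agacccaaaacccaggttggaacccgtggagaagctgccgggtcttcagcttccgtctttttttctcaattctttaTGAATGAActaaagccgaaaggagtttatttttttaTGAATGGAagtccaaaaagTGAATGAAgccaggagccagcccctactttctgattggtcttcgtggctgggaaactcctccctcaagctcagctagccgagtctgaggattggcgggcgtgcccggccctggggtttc
Etv5, chr16:22258484-22258733, minus strand: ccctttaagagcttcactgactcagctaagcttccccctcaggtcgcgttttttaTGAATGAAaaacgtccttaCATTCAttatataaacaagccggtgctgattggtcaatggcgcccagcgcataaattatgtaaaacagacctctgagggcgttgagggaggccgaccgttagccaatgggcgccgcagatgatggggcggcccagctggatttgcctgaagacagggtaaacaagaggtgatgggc
Dusp4, chr8:35274192-35274441, plus strand: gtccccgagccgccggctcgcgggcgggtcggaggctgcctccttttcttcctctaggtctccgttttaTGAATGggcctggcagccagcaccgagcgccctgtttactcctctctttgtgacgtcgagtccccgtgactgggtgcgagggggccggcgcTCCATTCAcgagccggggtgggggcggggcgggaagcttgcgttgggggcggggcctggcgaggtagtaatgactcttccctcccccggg
Dusp6, chr10:99098818-99099067, plus strand: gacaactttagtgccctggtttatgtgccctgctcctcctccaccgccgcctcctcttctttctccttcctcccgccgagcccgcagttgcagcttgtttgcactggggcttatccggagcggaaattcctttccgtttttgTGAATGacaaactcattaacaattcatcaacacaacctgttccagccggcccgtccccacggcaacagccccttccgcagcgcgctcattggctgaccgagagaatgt
Dusp5, chr19:53517282-53517531, plus strand: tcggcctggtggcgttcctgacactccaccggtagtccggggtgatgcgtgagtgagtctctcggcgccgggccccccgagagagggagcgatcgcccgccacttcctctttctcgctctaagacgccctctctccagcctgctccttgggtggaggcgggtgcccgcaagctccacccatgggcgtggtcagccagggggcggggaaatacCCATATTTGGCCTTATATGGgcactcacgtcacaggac
Phlda1, chr10:111341897-111342146, plus strand: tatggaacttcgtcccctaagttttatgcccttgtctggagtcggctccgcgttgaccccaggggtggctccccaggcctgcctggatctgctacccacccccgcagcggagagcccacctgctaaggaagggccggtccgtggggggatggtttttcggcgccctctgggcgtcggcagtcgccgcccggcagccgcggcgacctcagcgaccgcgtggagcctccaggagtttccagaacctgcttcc

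Etv4 holds 3 octamers, which begin 174, 138 and 119 bases before the start, and is 1 of 12 genes with at least 3 among the 14995 tested genes with such a window. Etv5 and Dusp4 each hold 1 octamer and a further hexamer, while Dusp6 holds the hexamer alone, 108 bases before its start. Of all 14995 windows 2.54% hold the octamer and 8.25% the hexamer, and among the 10 members 4 hold the octamer (Dusp4, Etv4, Etv5 and Spry4) and 7 the hexamer (these 4 with Dusp6, Spry2 and Ier3). Dusp5 has neither, but 2 CArG boxes side by side that begin 38 and 28 bases before the start, where 1.23% of windows hold 1 or more boxes and 3 genes hold at least 2. The ETS motif CCGGAA was found in 1 member (Spry4, 16.7% of all windows), the PEA3 motif AGGAAG in 5 (27.9%), the AP-1 motif TGANTCA in Etv5 (4.83%) and the CRE motif TGACGTCA in 0 (1.97%), both strands counted. The window of Phlda1 holds none of the marked motifs. These matches are letters in a window and show no binding. The windows of Dusp4, Dusp5, Etv4 and Etv5 each overlap an exon of a noncoding gene on the opposite strand, and that of Dusp6 exons of noncoding genes on both strands.

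Among the phosphatases, Dusp6 (ENSMUSG00000019960, GRCm39 chr10:99086564-99103361) encodes the cytoplasmic phosphatase specific for ERK. It was at 53.5, 62.4 and 86.6 CPM in control mice 4, 5 and 6 and at 54.7, 64.1 and 62.2 CPM in untreated senescent MEFs. With Fucoidan-FV it was at 11.4, 8.33 and 11.9 CPM at 100 µg/mL and at 11.4, 9.78 and 12.3 CPM at 300 µg/mL. All 6 treated cultures lay far under the lowest untreated one, and control and senescent cultures overlapped. Relative to untreated senescent MEFs the log2 fold change was −2.52 (SE 0.24, 95% interval −3.04 to −1.99) at the lower dose and −2.43 (SE 0.24, −2.95 to −1.91) at the higher dose, and −2.50 and −2.39 with sequence offsets. Of its exonic bases 24.6% lie opposite the noncoding genes Gm34921 and Gm56965, which were under 1 CPM in every sample.

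Dusp5 (ENSMUSG00000034765, chr19:53517532-53530862), a nuclear phosphatase that also holds ERK there, was at 36.4, 20.2 and 14.9 CPM in control mice 4, 5 and 6. It was at 11.1, 6.68 and 39 CPM in untreated senescent MEFs. In treated MEFs it was at 2.6, 2.58 and 1.14 CPM at 100 µg/mL and at 1.12, 2.42 and 1.33 CPM at 300 µg/mL. Senescent mouse 6 was the highest of the 12 samples, yet even the lowest untreated culture was above every treated culture. It changed by a log2 of −3.17 (SE 0.64) at 100 µg/mL and −3.54 (SE 0.66) at 300 µg/mL, and −3.49 and −3.22 with sequence offsets. Without senescent mouse 6 it was −1.90 and −2.39. The opposite-strand gene Gm50394 covers 22.4% of its exonic bases, and whether strand was used in counting is not given in the sources used here. Gm50394 was at 3.37 ± 1.55 CPM (SD, n = 3) in untreated senescent MEFs and at 0.0851 ± 0.0903 and 0.355 ± 0.314 CPM in treated MEFs.

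Dusp4 (ENSMUSG00000031530, chr8:35274442-35287048), the other nuclear phosphatase of the list, spread more within groups. Its levels were 29.3, 23.8 and 7.94 CPM in control mice 4, 5 and 6 and 40, 15.1 and 23.5 CPM in untreated senescent MEFs. They were 13.4, 18.2 and 3.29 CPM at 100 µg/mL and 2.79, 16 and 4.27 CPM at 300 µg/mL. Mouse 5 overlapped at both doses with the senescent cultures. The log2 fold change was −1.17 (SE 0.71, interval −2.70 to 0.36) at the lower dose and −1.77 (SE 0.72, −3.33 to −0.21) at the higher dose. With sequence offsets the groups no longer overlapped, and the log2 fold change was −1.85 (SE 0.43) and −1.86 (SE 0.43).

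Of the ETS factors, Etv4 (ENSMUSG00000017724, chr11:101660568-101676197) was the member that stood lower in senescent than in control MEFs. It was at 73, 75.2 and 68.9 CPM in control mice 4, 5 and 6 and at 33.3, 38.8 and 43.4 CPM in untreated senescent MEFs. With Fucoidan-FV it was at 4.7, 4.96 and 2.39 CPM at 100 µg/mL and at 6.9, 4.77 and 4.89 CPM at 300 µg/mL. The 3 levels, control, senescent and treated, did not overlap. The log2 fold change between senescent and control MEFs was −0.91 (SE 0.27), and −1.18 (SE 0.24) with sequence offsets. Against untreated senescent MEFs it was −3.26 (SE 0.30) at 100 µg/mL and −2.80 (SE 0.29) at 300 µg/mL, and −3.13 and −2.68 with sequence offsets. Against control MEFs the mean was 18-fold lower with 100 µg/mL and 13.1-fold lower with 300 µg/mL.

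Etv5 (ENSMUSG00000013089, chr16:22200052-22259662), the closest relative of Etv4 and, like it, annotated with several transcripts, had smaller fold changes. It was at 54.8, 52.4 and 61.4 CPM in control mice 4, 5 and 6, at 70.4, 59.7 and 39.4 CPM in untreated senescent MEFs, and at 33.9, 27.7 and 32.5 CPM at 100 µg/mL. At 300 µg/mL it was at 56.3, 42.3 and 32.1 CPM. The cultures at 100 µg/mL were all lower in CPM than the senescent ones, and those at 300 µg/mL overlapped with them. In TPM, the values that RSEM scaled for gene length, the cultures at 100 µg/mL overlapped with the senescent ones as well. They ran from 16 to 21.4 TPM, and the untreated senescent ones from 12.2 to 32.4 TPM. The log2 fold change was −0.85 (SE 0.25, interval −1.39 to −0.30) and −0.37 (SE 0.25, −0.91 to 0.17), with −0.85 and −0.41 with sequence offsets.

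Phlda1 (ENSMUSG00000020205, chr10:111342147-111344506), which encodes a pleckstrin homology-like protein, was at 57.4, 44.2 and 47.1 CPM in control mice 4, 5 and 6 and at 38.2, 22.1 and 59.6 CPM in untreated senescent MEFs. It was at 12, 11.7 and 4.78 CPM at 100 µg/mL and at 7.06, 8.86 and 7.3 CPM at 300 µg/mL. Every treated culture was lower than every untreated one. Its log2 fold changes were −2.08 (SE 0.39) and −2.37 (SE 0.39), and −2.46 and −1.85 with sequence offsets. Phlda1 shares 33% of its exonic bases with Gm28592, whose levels were 19.2 ± 2.77 CPM in untreated senescent MEFs, 3.08 ± 0.139 CPM at 100 µg/mL and 3.89 ± 1.34 CPM at 300 µg/mL. Reads of both genes could have been divided between them.

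Ier3 (ENSMUSG00000003541, chr17:36132568-36133815), an early gene linked to cell survival, varied within each group as widely as between groups. It was at 30.5, 24.4 and 7 CPM in control mice 4, 5 and 6 and at 17.5, 7.63 and 27.4 CPM in untreated senescent MEFs. Treated MEFs had 21.4, 24.7 and 7.13 CPM at 100 µg/mL and 4.61, 16.1 and 10.6 CPM at 300 µg/mL. The groups overlapped, with log2 fold changes of 0.02 (interval −1.32 to 1.36) and −0.75 (−2.10 to 0.60) against untreated senescent MEFs.

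The Sprouty and SPRED genes, the brakes that act at RAS and RAF, had log2 fold changes above 0 at 100 µg/mL with TMM factors, of which that of Spry4 turned below 0 with sequence offsets. Spred1 (ENSMUSG00000027351, chr2:116951524-117018277) was at 31, 25.4 and 13.5 CPM in control mice 4, 5 and 6 and at 35.7, 23.6 and 20.3 CPM in untreated senescent MEFs. It was at 47.1, 47.9 and 27.1 CPM at 100 µg/mL and at 20.4, 38.5 and 26.6 CPM at 300 µg/mL. Each mouse was higher at 100 µg/mL than untreated, but the groups overlapped. Its log2 fold changes were 0.62 (interval −0.15 to 1.39) and 0.10 (−0.67 to 0.87), and 0.18 and 0.01 with sequence offsets.

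Spry2 (ENSMUSG00000022114, chr14:106128766-106136446) and Spry4 (ENSMUSG00000024427, chr18:38719300-38736025) had the lowest CPM of the 10 in control MEFs. Spry2 ran from 0.658 to 6.93 CPM in control MEFs, from 2.59 to 7.25 CPM in untreated senescent MEFs, from 6.06 to 11.2 CPM at 100 µg/mL and from 2.21 to 7.59 CPM at 300 µg/mL. Spry4 ran from 1.32 to 7.18 CPM, from 2.24 to 6.26 CPM, from 2.08 to 8.52 CPM and from 1.09 to 6.15 CPM in the same order. The groups overlapped for both genes. The log2 fold changes against untreated senescent MEFs were 0.75 (interval −0.73 to 2.24) and −0.08 (−1.56 to 1.40) for Spry2 and 0.40 (−1.17 to 1.96) and −0.37 (−1.94 to 1.20) for Spry4. With sequence offsets the values at 100 µg/mL were 0.18 for Spry2 and −0.34 for Spry4.

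**Figure D2:**
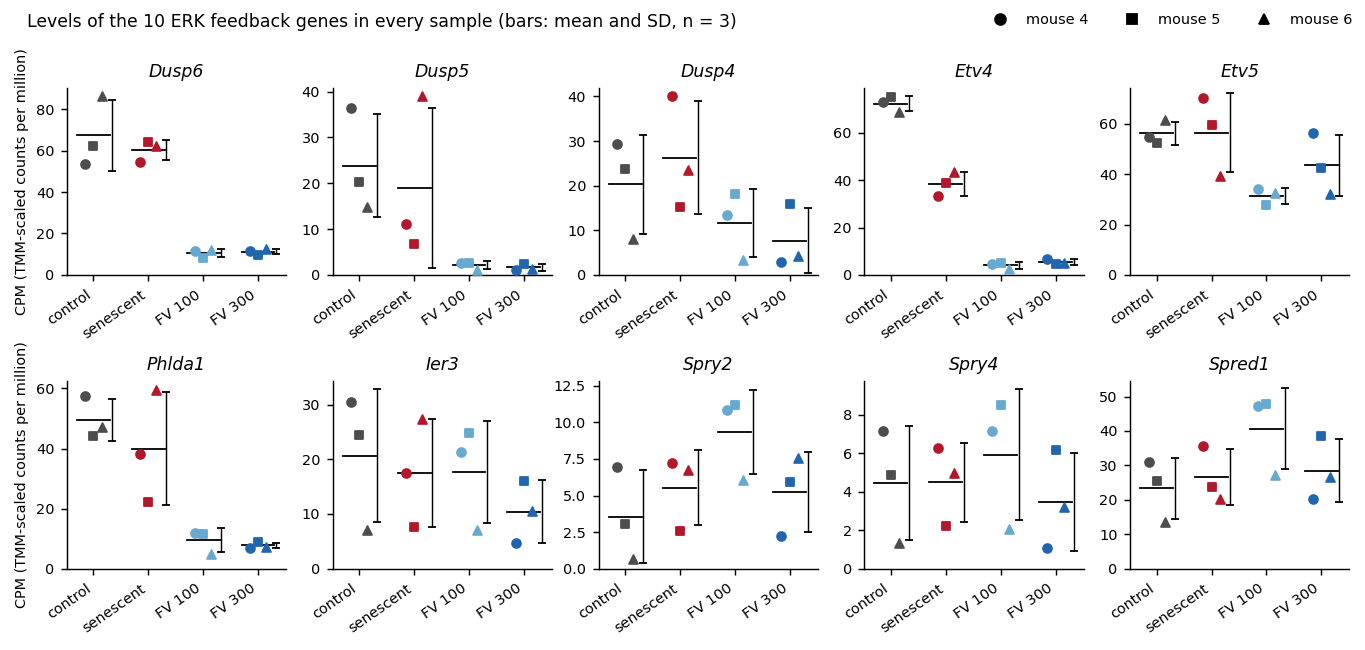
Levels of the 10 genes in CPM (with TMM factors, linear axes from 0) in control MEFs, in untreated senescent MEFs and at 100 or 300 µg/mL Fucoidan-FV (FV 100, FV 300). Points are single mice, lines the mean and bars the SD (n = 3), and for Dusp6, Dusp5, Etv4 and Phlda1 the treated points all lie under the senescent ones.

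A gene was called changed in edgeR's quasi-likelihood test where its adjusted p was under 0.05 and its log2 fold change lay beyond 1 in either direction. At 100 µg/mL 4 of the 10 members were called lower (Dusp5, Dusp6, Phlda1 and Etv4), where 1.60% of all tested genes were called lower, and at 300 µg/mL the same 4 of 10, where 0.885% of all genes were called lower. Since the members were proposed from these levels, nothing is read from these shares. The median log2 fold change of the 10 was −1.01 and −1.26, and that of all tested genes −0.02 and 0.000267. Groups did not overlap in CPM, with treated MEFs lower, for 5 of 10 members at 100 µg/mL (15.0% of all genes), which adds Etv5, and for 4 at 300 µg/mL (10.2%). With sequence offsets Dusp4 was called too, which makes 5 of 10 lower at each dose (2.38% and 1.21% of all genes).

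With the mouse number as a replicate block 3 members were called lower at 100 µg/mL, since Dusp5 (log2 fold change −3.13) was no longer called, and the same 4 at 300 µg/mL. Dusp6 and Etv4 were called lower at both doses in 17 of 17 alternatives, Dusp5 in 11 at 100 µg/mL and 13 at 300 µg/mL, and Phlda1 in 14 and 16. All alternatives refit the values from which the members were proposed. They describe how the calls depend on the processing and add no independent evidence. At 100 µg/mL Dusp5 was not called without senescent mouse 6 (log2 fold change −1.90) or without mouse 4 (−3.35), 5 (−3.33) or 6 (−2.87) of the treated group. Phlda1 was not called at this dose without senescent mouse 4 (−1.89) or 6 (−1.49). At 300 µg/mL Dusp5 was not called without senescent mouse 6 (−2.39) or mouse 4 (−3.33) or 6 (−3.41) of the treated group, and Phlda1 not without mouse 6 of the treated group (−2.33). So 2 members, Dusp6 and Etv4, were called at 100 µg/mL without senescent mouse 6 and at 300 µg/mL without treated mouse 6.

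Between untreated senescent and control MEFs 0 of 10 members were called with edgeR and 0 with DESeq2, where 8.42% of all tested genes were called with edgeR, and 1 member (Etv4) had an unadjusted p under 0.05. The median log2 fold change of the 10 was −0.08, and only Etv4 had groups that did not overlap (lower in 12.9% of all genes). Etv4 was called lower with sequence offsets (4.62% of all genes), with library 5(1) alone for control mouse 5, and by the adjusted p alone (11.7% of all genes in either direction). By the adjusted p alone it was no longer called with the replicate block (log2 fold change −0.90), with library 5(2) alone (−0.71), with 5(1) and 5(2) as separate samples, or without any 1 of the 6 cultures. Etoposide senescence itself is visible in the same cultures, in which Cdkn1a, the cell cycle inhibitor p21, was at 468 ± 83.2 CPM in control and 1652 ± 187 CPM in untreated senescent MEFs.

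The doses were compared directly, and 0 of 10 members were called between 300 and 100 µg/mL with edgeR or DESeq2, where 0.00665% of all genes were called with edgeR, and 0 members had an unadjusted p under 0.05. The 95% interval of the log2 difference, 300 minus 100 µg/mL, was −0.42 to 0.58 for Dusp6, −0.14 to 1.06 for Etv4 and −1.11 to 0.52 for Phlda1. The interval for Dusp5 was −1.70 to 0.96. With sequence offsets the difference turned its sign for Phlda1 (from −0.29 to 0.61, interval −0.27 to 1.48) and for Dusp5 (from −0.37 to 0.27, interval −0.58 to 1.11). All 3 cultures at 300 µg/mL were then higher in Phlda1 than those at 100 µg/mL (8.74% of all genes). This difference leans in part on 1 sample. Mouse 4 at 300 µg/mL went from 7.06 to 15.0 CPM with the offsets. Mice 5 and 6 at this dose were then at 7.37 and 7.23 CPM, and the highest culture at 100 µg/mL was at 6.52 CPM.

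Against control MEFs, which had neither etoposide nor fucoidan, the same 4 genes were called lower at each dose, where 9.37% of all genes were called lower at 100 µg/mL and 8.11% at 300 µg/mL. Their log2 fold changes at 100 µg/mL were −4.17 (Etv4), −3.50 (Dusp5), −2.68 (Dusp6) and −2.39 (Phlda1), and at 300 µg/mL −3.71, −3.87, −2.59 and −2.68 in the same order. All 3 treated cultures of each dose lay lower than all control cultures for these genes (24.1% and 21.1% of all genes). With sequence offsets Dusp4 was called lower too (log2 fold change −1.55 at 100 µg/mL and −1.56 at 300 µg/mL), which makes 5 of 10 at each dose (22.1% and 20.3% of all genes were called in either direction). At 100 µg/mL the log2 fold change was then −4.23 for Dusp5 and −3.37 for Phlda1. The value of Phlda1 leans in part on 1 sample. Its level in control mouse 6 went from 47.1 to 119 CPM with the offsets, and mice 4 and 5 were at 40.6 and 40.1 CPM. At 100 µg/mL the other direction was seen in Spry2 (log2 fold change 1.39, interval −0.11 to 2.90), Spred1 (0.80, 0.03 to 1.58) and Spry4 (0.41, −1.16 to 1.98). They were at 0.96, 0.55 and −0.21 with sequence offsets, and none was called in either fit. The comparisons with control and with untreated senescent MEFs share their treated samples, and both doses share the untreated samples.

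**Figure D3:**
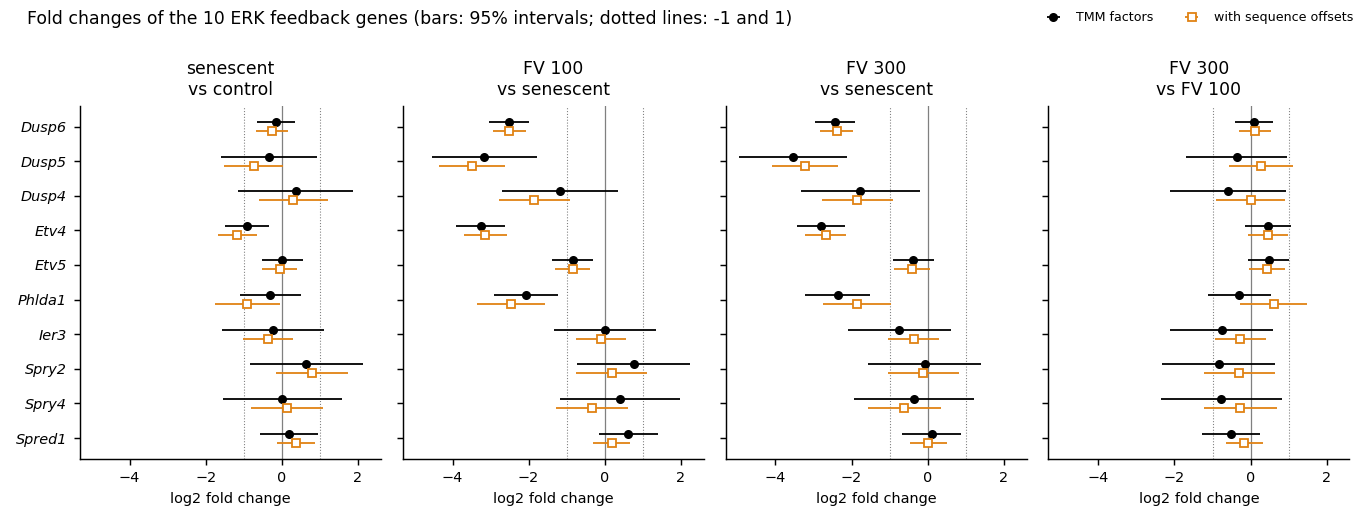
Log2 fold changes of the 10 genes (x axis) in 4 comparisons, with 95% intervals, in the fit with TMM factors (black points) and with sequence offsets (open orange squares). Dusp6, Dusp5, Etv4 and Phlda1 lie under −1 at both doses in both fits, and in the comparison of the doses every interval includes 0.

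Per length, in the TPM values that RSEM gave, Etv4 (55.8 ± 1.17 TPM, SD) and Dusp6 (54.2 ± 14.9 TPM) were the most abundant of the 10 in control MEFs, and their difference was within the spread of Dusp6. Phlda1 (37.2 ± 6.06 TPM) and Ier3 (31.1 ± 18.8 TPM) followed and overlapped, and Spry4 was last at 1.29 ± 0.856 TPM. In untreated senescent MEFs Dusp6 led with 50.5 ± 11.7 TPM, followed by Etv4 (30.5 ± 4.65 TPM), Phlda1 (30.1 ± 11.2 TPM) and Ier3 (25.3 ± 12.2 TPM). Phlda1 overlapped with Dusp6, and Etv4, Phlda1 and Ier3 overlapped with each other.

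The order was different in treated MEFs, in TPM values without sequence offsets that carry the library difference in single-transcript genes. Ier3, with 1 transcript, had mean levels of 17.5 CPM in untreated senescent MEFs and 17.7 CPM at 100 µg/mL. At 100 µg/mL Ier3 (37.6 ± 21.9 TPM), Etv5 (18.3 ± 2.79 TPM) and Spred1 (16.7 ± 2.95 TPM) had the highest means and all overlapped, with the lowest Ier3 culture at 12.7 TPM. Dusp6 was the fourth of the 10 at 11.9 ± 1.70 TPM, Etv4 the eighth at 4.65 ± 2.53 TPM and Dusp5 last at 1.7 ± 0.806 TPM. At 300 µg/mL Etv5 (21.3 ± 7.27 TPM) and Ier3 (20 ± 12.6 TPM) overlapped at the top, and Spry4 (1.26 ± 1.02 TPM) and Dusp5 (1.18 ± 0.632 TPM) at the bottom.

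Over the 12 samples the members fell into patterns, described here by Pearson's r of log2 CPM, in which groups and libraries are shared by all genes. Dusp5 and Phlda1 (r = 0.983), Dusp6 and Etv4 (0.957) and Etv4 and Phlda1 (0.948) ran most closely together. Spry4 ran with Ier3 (0.928), and Spry2 with Spred1 (0.844), while Dusp6 and Spred1 had r = −0.569. Dusp5 and Phlda1, Spry4 and Ier3, and Spry2 and Spred1 all lie wholly or mostly in 1 transcript and so share the library difference described above, whose part in their likeness was not tested. Other genes most like the mean z-score of the 10 included Cavin4 (r = 0.976), Nppb (0.972), Klhdc8a (0.965) and Flt4 (0.965), and of these Cavin4, Nppb and Klhdc8a have 1 transcript.

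Other genes of the members' families were mostly not called. Of 16 relatives 13 were tested, and Dusp1, a nuclear phosphatase that acts on p38 and JNK as well as ERK, was called lower at both doses. It went from 231 ± 38.2 CPM in untreated senescent MEFs to 92.8 ± 12.7 CPM at 100 µg/mL (−1.32 on the log2 scale, SE 0.19, adjusted p = 0.00393 in edgeR) and to 105 ± 11.4 CPM at 300 µg/mL (−1.14, SE 0.19, adjusted p = 0.0101). Dusp1 was not called at 300 µg/mL without senescent mouse 5 or treated mouse 6, and with sequence offsets the value there was −0.997 and no longer passed the fold threshold. Dusp7, an ERK phosphatase like Dusp6, had log2 fold changes of 0.23 and −0.04, Spry1 of 0.06 and 0.17, and Etv1, the third factor of the Etv4 family, of 0.74 and 0.98, none of them called. The median of the 13 was 0.04 at 100 µg/mL and −0.50 at 300 µg/mL. Phlda3, a p53 target, rose in senescent MEFs (log2 fold change 1.27, SE 0.34, adjusted p = 0.0271 in edgeR, and 0.0566 with the mouse number as a replicate block). Of all tested genes 8.42% were called in senescent MEFs, and 1.60% and 0.885% were called lower at the doses. A list of 13 genes is too short to set few calls apart from these shares, so nothing is read from the counts.

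Of 21 adaptor, RAS, RAF, MEK, ERK and RSK genes Rps6ka1, an ERK-activated kinase, fell in senescent MEFs from 18.4 ± 2.71 to 6.7 ± 1.12 CPM (−1.46 on the log2 scale, SE 0.29, adjusted p = 0.00542 in edgeR). Braf, a RAF kinase, rose at 100 µg/mL from 16.3 ± 5.05 to 39.1 ± 8.04 CPM (1.27 on the log2 scale, SE 0.30, adjusted p = 0.0338 in edgeR), but the value was 0.64 and not called with sequence offsets. The medians of the 21 were −0.08 and 0.02 at the doses, and 0 were called at 300 µg/mL with edgeR or DESeq2 (5 with an unadjusted p under 0.05). Of 13 other inhibitors of the pathway, among them Nf1, Rasa1 and Errfi1, 0 were called with edgeR in senescent MEFs or at either dose, with medians of 0.15 and 0.37 for the doses. There were 0, 2 and 3 genes with an unadjusted p under 0.05 in these comparisons, and DESeq2 called 1 gene, Il17rd, higher at each dose. The shares of all tested genes were 8.42% called in senescent MEFs and 1.60% and 0.885% called lower at the doses. Lists of 21 and 13 genes are too short to set few or no calls apart from these shares.

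The gene that encodes capicua was looked up after its value had been seen. Cic was at 148 ± 37.7 CPM in untreated senescent MEFs, 186 ± 28.1 CPM at 100 µg/mL and 192 ± 20.3 CPM at 300 µg/mL, and was not called (log2 fold change 0.33, adjusted p = 0.395, and 0.38, adjusted p = 0.404, in edgeR).

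Of 17 other genes widely induced through ERK 16 were tested. Of these, 4 were called lower at 100 µg/mL and 5 at 300 µg/mL, where 1.60% and 0.885% of all tested genes were called lower. The 16 had median log2 fold changes of −0.98 and −1.08, near those of the 10 feedback genes. This list too was chosen with earlier results of these data known. Its p-values are thus a description, and nothing is read from the likeness of the medians. Fosl1, an AP-1 subunit, went from 17.5 ± 4.38 CPM in untreated senescent MEFs to 1.91 ± 1.28 and 1.22 ± 0.319 CPM (log2 fold change −3.20, adjusted p = 0.00859, and −3.84, adjusted p = 0.00635, in edgeR). Egr2, an early zinc finger factor, went from 36.4 ± 13.5 CPM to 2.47 ± 0.596 and 2.02 ± 2.34 CPM (−3.88, adjusted p = 0.0206, and −4.18, adjusted p = 0.0243, in edgeR). Hbegf, an EGF receptor ligand, had −2.08 and −2.21 (adjusted p = 0.0202 and 0.0237 in edgeR), and Myc −1.22 and −1.02 (adjusted p = 0.00765 and 0.0243 in edgeR). Egr3 fell at 300 µg/mL from 4.92 ± 0.989 to 0.166 ± 0.287 CPM (−4.90, SE 1.14, adjusted p = 0.045 in edgeR). Its treated level was near 0, so the size of this fold is uncertain. With sequence offsets Myc was at −0.86 and not called at 300 µg/mL, and Ereg, another EGF receptor ligand, was called lower at both doses (adjusted p = 0.00679 and 0.00731 in edgeR), as was Egr3 at 100 µg/mL (adjusted p = 0.0456). Without senescent mouse 5 Fosl1 and Myc were called at 100 µg/mL and Fosl1 alone at 300 µg/mL, and without senescent mouse 6 Fosl1 alone was called at each dose. Fos itself was at 2.34 ± 1.82 CPM in untreated senescent MEFs and at 2.58 ± 2.02 and 3.53 ± 3.57 CPM in treated MEFs and was not called. Vgf rose in senescent MEFs (2.94, SE 0.87, adjusted p = 0.0424 in edgeR, and not with the replicate block).

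Upstream, 0 of 12 growth factor receptor genes were called with edgeR in senescent MEFs or at either dose, with medians of 0.60 and 0.46 for the doses. There were 2, 3 and 3 genes with an unadjusted p under 0.05, and DESeq2 called 0, 1 and 0. With the mouse number as a replicate block Insr was called higher at 100 µg/mL (log2 fold change 1.23 without the block, adjusted p = 0.0489 with it and 0.0651 without it, in edgeR), and with sequence offsets Erbb2 was called lower in senescent MEFs (−1.004). Of 14 ligand genes Igf1 rose in senescent MEFs (log2 fold change 1.56, adjusted p = 0.0414 in edgeR) and again at both doses (2.72, adjusted p = 0.00792, and 2.74, adjusted p = 0.0103, in edgeR), and edgeR called none of the others. DESeq2 called 3 ligand genes in senescent MEFs, 2 at 100 µg/mL and 3 at 300 µg/mL. With sequence offsets edgeR also called Fgf2 (1.31) and Fgf10 (3.72) higher in senescent MEFs. Without offsets edgeR called 8.42% of all tested genes in senescent MEFs, and 1.60% and 0.885% lower at the doses. The 12 receptor and 14 ligand genes are too few to set few or no calls apart from these shares.

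**Figure D4:**
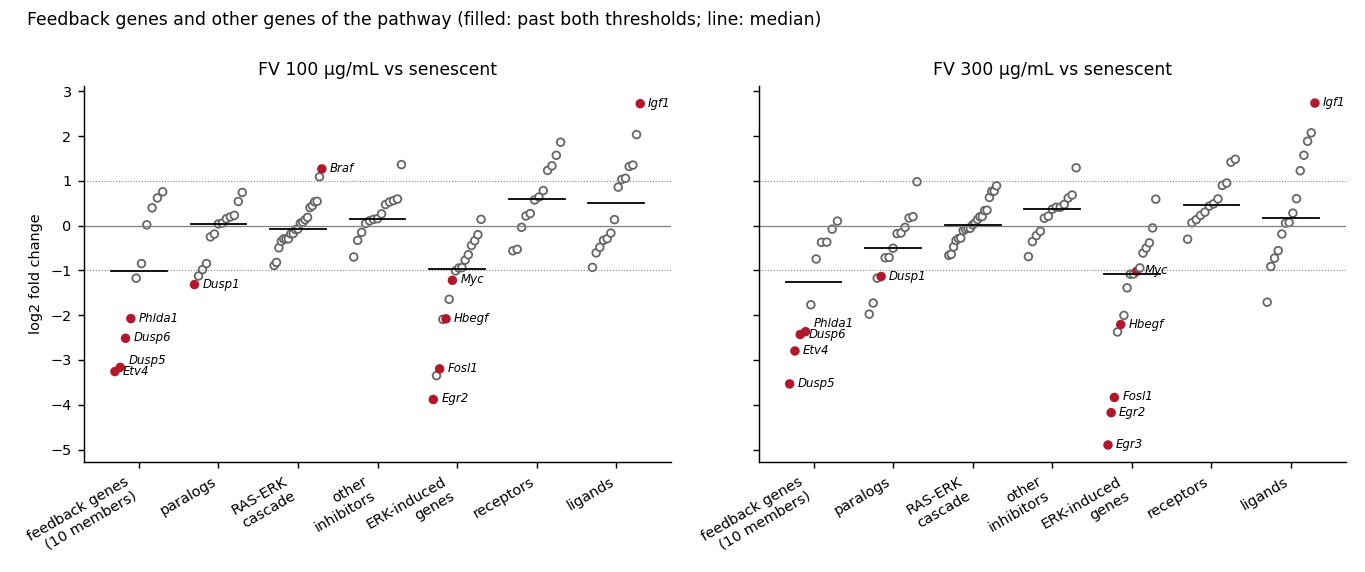
Log2 fold change against untreated senescent MEFs (y axis) of each tested gene of 7 lists at 100 µg/mL (left) and 300 µg/mL (right). Filled points passed both thresholds and are named, lines are medians, and the feedback genes and the other ERK-induced genes have medians near −1 while those of the cascade lie near 0. All lists were chosen with earlier results of these data known.

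Markers of other cell types were set beside these results. The summed level of 6 endothelial markers was 1.47 to 3.30 CPM in untreated senescent MEFs, 5.92 to 11.7 CPM at 100 µg/mL and 5.23 to 8.36 CPM at 300 µg/mL, with Cldn5 at 0 in all groups. Only 1 of the 6 had a mean above 1 CPM at each dose. Of the 6, Tek was called higher at 100 µg/mL (log2 fold change 3.58, SE 0.90, adjusted p = 0.0446 in edgeR). The sum of 4 chondrocyte markers was 617 to 866 CPM in control, 219 to 349 CPM in untreated senescent, 112 to 176 CPM at 100 µg/mL and 152 to 218 CPM at 300 µg/mL, with Matn1 at 0 in all but the last. In each group only 1 or 2 of these 4 had a mean above 1 CPM. The 7 macrophage markers summed to 3.32 to 17.7 CPM over the groups, 6 neural markers to 0.913 to 5.97 CPM (Neurod1 at 0 in all groups), 6 muscle markers to at most 2.13 CPM and 6 epithelial markers to at most 0.782 CPM. The part of other cell types in the levels of the feedback genes was not tested.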

How the data were processed

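RNA-Seq was measured in 13 libraries of mouse embryonic fibroblasts in 4 groups of 3 mice. Per the study's methods and the submitters' processing notes, the authors checked reads with FastQC 0.12.1, trimmed them with Trimmomatic, aligned them with STAR 2.7.11b to GRCm39 and counted genes with RSEM 1.3.1. The strand setting is not given in the sources used here. The deposited expected counts per gene, not normalized, were rounded to whole numbers, and the deposited TPM values, scaled by the authors for gene length and depth, were used only to order levels between genes. A series-wide table of the same counts was not used. Libraries held between 22782536 and 31278750 counts, and libraries 5(1) and 5(2) of control mouse 5 were summed.

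Genes passing edgeR's filterByExpr (minimum count 10, minimum total 15) were fitted in R 4.3.3 with edgeR 4.0.16 (TMM factors, quasi-likelihood test, all 4 groups in 1 fit of 12 samples, Benjamini-Hochberg adjustment over 15034 genes, thresholds of 0.05 and an absolute log2 fold change of 1 as in the study). Levels are CPM with TMM factors. The fit was also run on simulated counts. These had no mouse pairing and no library difference in single-transcript genes, so that run does not cover either. Sequence offsets are per-library trends (splines with 4 degrees of freedom) on the share of exonic bases in 1 transcript, length and GC content, for the 56310 of 57010 listed genes matched to the annotation of GRCm39. DESeq2 1.42.0, other factors, filters, libraries, a replicate block and leaving out each mouse were alternatives.

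The same mouse number in several groups names the same mouse in the labels, so the groups are paired. Deviations from group means correlated with a median r of −0.00627 over 18 same-number pairs of samples (−0.204 to 0.425, 8 over 0.1). The main fit leaves the pairing out, and the mouse number enters only in the alternatives with a replicate block. P-values of the main fit measure the spread between these samples. The members and all lists were chosen with earlier results of these data known. All members are named, and from each other list the genes called in senescent MEFs or at either dose, at most the 6 with the largest fold change, and the 5 genes most like the members' mean, of which 1 is not reported here. Other genes named outside this rule (Dusp7, Spry1, Etv1, Fos, Cic and those called only in an alternative or among the cell type markers) were chosen after their values were seen.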

Additional observations from a re-analysis of the deposited data

How the results depend on the processing

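No called member fold change turned its sign under any alternative run. At 100 µg/mL the members called went from 4 to 2 with only the 2 groups compared and to between 2 and 4 when 1 mouse was left out. At 300 µg/mL leaving out 1 mouse gave 2 to 4. Between senescent and control MEFs they went from 0 to 1 (Etv4) with library 5(1) alone, sequence offsets, offsets with the replicate block and the adjusted p alone. With the mouse number as a replicate block Dusp5 at 100 µg/mL was lost and no other member call changed (0 in senescent MEFs, 3 and 4 at the doses, 0 between doses, 4 and 4 against control).

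Relatives called in senescent MEFs went from 1 to 0 with library 5(2) alone, the replicate block or only the 2 groups, to 2 with offsets, offsets with the block or the adjusted p alone, and to 0 to 1 without 1 mouse. At 300 µg/mL they went from 1 to 0 with offsets, with or without the block, and to 0 to 1 without 1 mouse. Cascade genes went from 1 to 3 in senescent MEFs by the adjusted p alone. At 100 µg/mL they went from 1 to 2 with no filter beyond 1 count (Braf and Frs2), to 0 with library 5(2) alone, offsets, offsets with the block or only the 2 groups, and to 0 to 1 without 1 mouse. Other inhibitors went from 0 to 1 (Il17rd) with DESeq2 at both doses and with no filter at 100 µg/mL.

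Other ERK-induced genes called in senescent MEFs went from 1 to 2 (no filter, both libraries of mouse 5 separate, adjusted p alone), 0 (at least 10 counts in every sample, library 5(2) alone, block, only the 2 groups), 3 (offsets, with or without the block) and 0 to 2 without 1 mouse. At 100 µg/mL they went from 4 to 7 with offsets and the block, 2 with only the 2 groups and 1 to 4 without 1 mouse. At 300 µg/mL they went from 5 to 3 with at least 10 counts in every sample, 2 with only the 2 groups and 1 to 3 without 1 mouse. Fits of the 2 groups alone and without 1 mouse hold fewer samples, and for the other changes the cause was not tested. Spry2 and Spry4, the shallowest members, have, with Dusp4 and Dusp5, the widest intervals against untreated senescent MEFs.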
